A study of Mus musculus with 9 samples.

Results

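The genes described are 10 components of the piRNA pathway and of germline genome defence: *Piwil2*, *Mael*, *Mov10l1*, *Tdrd1*, *Tdrd9*, *Ddx4*, *Asz1*, *Tex19.1*, *Tdrkh* and *Pld6*. They were chosen by symbol from the 25239 gene symbols of the deposited count tables, and the choice was made with earlier results of these data known. RNA-seq was performed on E14 mouse embryonic stem cells (ESCs; strain given as 12910la), grown with serum and leukemia inhibitory factor, in 9 libraries of poly(A) RNA. The control line (Rbbp4+/+), the Rbbp4Ins/Ins line and the Rbbp4Ins/Del line had 3 libraries each. *Rbbp4* encodes a histone-binding WD40 protein shared by PRC2, NuRD and other chromatin complexes. Both mutant lines came from CRISPR-Cas9 targeting of *Rbbp4*. In Rbbp4Ins/Ins both alleles carry the same small in-frame insertion, and in Rbbp4Ins/Del one allele carries that insertion and the other a small in-frame deletion, so that neither line is a null. Each mutant line is 1 clone, so that an effect of the *Rbbp4* alleles and a difference between clones cannot be told apart. No source states that the libraries of a line came from separate cultures, and p-values measure only the spread between these libraries.

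piRNAs are small RNAs that guide PIWI proteins, a branch of the Argonaute family, to transcripts of transposable elements. In the fetal testis the pathway slices these transcripts in the cytoplasm and directs DNA methylation to their genes in the nucleus, and its loss leads to transposon activity and male sterility. It works in granules between mitochondria of germ cells, where a nuclease on the mitochondrial surface, RNA helicases and a family of Tudor-domain scaffold proteins process piRNA precursors and hold the PIWI proteins in place. Several of its genes are transcribed at a low level in ESCs, where E2F6 and MGA within a PRC1 variant, together with promoter DNA methylation, are known to repress germline genes. piRNAs and transposon transcripts were not analysed here.

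The promoters of *Tdrd9*, *Mov10l1*, *Mael* and *Tex19.1*, which were higher in both mutant lines, and of *Tdrd1*, which was lower, are shown so that members that moved in opposite directions can be compared. The sequences are from RefSeq on GRCm38.p6, 5′ to 3′ on the strand of the gene, and run from 250 bases before the annotated start up to the base before the first start of any annotated transcript. Capitals mark the E-box CACGTG, the sequence bound by MAX dimers such as MGA with MAX, and the E2F core GCGGGA or its reverse complement TCCCGC. In order, they lie at chr12:111971309-111971558 on the plus strand, chr15:88982744-88982908 on the plus strand, chr1:166238748-166238994 on the minus strand, chr11:121145893-121146142 on the plus strand and chr19:56825959-56826208 on the plus strand.
Tdrd9: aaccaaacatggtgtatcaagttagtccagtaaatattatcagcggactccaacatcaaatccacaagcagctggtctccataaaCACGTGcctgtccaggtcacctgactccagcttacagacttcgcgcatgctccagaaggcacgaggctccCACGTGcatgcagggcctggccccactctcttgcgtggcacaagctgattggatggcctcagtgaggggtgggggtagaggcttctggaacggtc
Mov10l1: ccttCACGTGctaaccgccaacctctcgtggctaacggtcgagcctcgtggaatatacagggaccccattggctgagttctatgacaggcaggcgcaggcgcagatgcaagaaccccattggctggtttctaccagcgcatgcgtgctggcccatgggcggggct
Mael: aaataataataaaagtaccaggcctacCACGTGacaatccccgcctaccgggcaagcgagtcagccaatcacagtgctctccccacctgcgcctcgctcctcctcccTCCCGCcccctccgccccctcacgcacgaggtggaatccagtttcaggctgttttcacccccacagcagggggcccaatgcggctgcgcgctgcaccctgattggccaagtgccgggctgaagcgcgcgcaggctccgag
Tex19.1: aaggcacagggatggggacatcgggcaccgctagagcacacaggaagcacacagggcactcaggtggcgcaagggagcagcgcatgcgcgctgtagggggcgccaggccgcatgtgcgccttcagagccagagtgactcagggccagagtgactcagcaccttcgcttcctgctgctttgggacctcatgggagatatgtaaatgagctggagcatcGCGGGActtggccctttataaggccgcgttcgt
Tdrd1: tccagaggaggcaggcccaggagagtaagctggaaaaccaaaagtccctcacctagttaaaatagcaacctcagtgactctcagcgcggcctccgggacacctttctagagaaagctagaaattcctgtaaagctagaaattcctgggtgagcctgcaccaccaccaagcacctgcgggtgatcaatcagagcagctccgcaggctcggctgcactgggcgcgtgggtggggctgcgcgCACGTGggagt
In these sequences the E-boxes began 165 and 95 bases before the start of *Tdrd9*, 246 bases before that of *Mov10l1*, 223 bases before that of *Mael* and 11 bases before that of *Tdrd1*. The E2F core began 143 bases before the start of *Mael* and 33 bases before that of *Tex19.1*. RefSeq promoter windows of 300 bases (250 before to 50 after the start) were matched for 9 of the 10 members. Searched on both strands, an E-box was in 6 of these 9 windows, those of *Mael*, *Mov10l1*, *Tdrd1*, *Tdrd9*, *Ddx4* and *Pld6*, and in 10.3% of the 11125 windows of genes tested here (7.24% of all 27025 windows). The 6 genes include members that were higher, lower and not called in the mutant lines, as given below, and the windows of *Asz1* and *Tex19.1*, both higher in the mutants, held no CACGTG. The E2F core was in 3 of the 9 windows (*Mael*, *Ddx4* and *Tex19.1*) and in 36.2% of the windows of tested genes. The windows of *Asz1*, higher in both mutant lines, and of *Tdrkh*, lower in both, are not shown and held neither motif. The members' windows held between 10 CpG dinucleotides (*Tdrd9*) and 38 (*Ddx4*), against a median of 20 over the windows of tested genes. A match describes the letters in the window and is not a measurement of binding.

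Libraries held 15838064 to 21366868 counted reads, and 14125 genes had enough reads to be tested, all 10 members among them. *Rbbp4* itself had 9932 to 10117 normalised counts in the control libraries and 5485 to 5776 in the Ins/Ins libraries, a decrease of 44.0% (log2 fold change −0.84, adjusted p = 1.8e-25). The Ins/Del libraries had 10129 to 10603 normalised counts of *Rbbp4* (log2 fold change 0.05, adjusted p = 0.11). These are RNA levels, whereas the study reported lower amounts of the mutant RBBP4 proteins by Western blot. A normalised count is the read count rescaled so that all libraries have one effective size, their mean. Tests are quasi-likelihood tests in edgeR, with p-values adjusted by Benjamini-Hochberg over all genes tested. A gene was called at an adjusted p of at most 0.01, and errors are SD over 3 libraries for levels and standard errors (SE) for log2 fold changes. The libraries carried the ESC markers of a list of 10 (*Pou5f1*, *Nanog*, *Sox2* and others), all 10 of them detected, at a summed level of 5447 to 5704 CPM (reads scaled to a fixed effective library size) in control, 6744 to 6844 in Ins/Ins and 6731 to 6880 in Ins/Del. Of the 10, 7 were higher and 2 lower in Ins/Ins (all genes tested: 29.0% and 29.4%). In Ins/Del 6 were higher and 1 lower (30.6% and 31.9%). *Utf1* was lower in both lines (log2 fold changes −0.48 and −0.72), and *Pou5f1* was lower in Ins/Ins (−0.12).

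In both mutant lines 5 members were higher than in control: *Tex19.1*, *Mael*, *Mov10l1*, *Tdrd9* and *Asz1*. In Ins/Ins 4 were lower (*Piwil2*, *Tdrd1*, *Tdrkh* and *Pld6*) and *Ddx4* was not called, and in Ins/Del 3 were lower (*Tdrd1*, *Tdrkh* and *Pld6*) with *Ddx4* and *Piwil2* not called. These counts stand against a wide background, since 58.4% of all genes tested were called in Ins/Ins (29.0% higher, 29.4% lower) and 62.5% in Ins/Del (30.6% higher, 31.9% lower). *Tex19.1*, *Mov10l1*, *Tdrd9* and *Asz1* (4 of 10) were called and more than 2-fold higher in both lines and *Tdrd1* (1 of 10) more than 2-fold lower in both, while 6.58% of all genes tested were more than 2-fold higher in both lines and 8.10% more than 2-fold lower. Of those 4 members, *Asz1* and *Tdrd9* had enough reads to be tested only through the mutant libraries, where they are high. No control library reached the minimum for *Asz1*, and 1 of 3 did for *Tdrd9*. *Mael* was 1.93-fold higher in Ins/Ins and 2.17-fold in Ins/Del. Of all genes tested, 25.6% were called higher in both lines and 26.7% lower in both. Every Ins/Ins library lay above every control library for 5 members (34.9% of all genes tested) and below for 4 (34.2%), and every Ins/Del library lay above for 5 (35.9%) and below for 3 (36.9%). The median log2 fold change over the members was 0.44 in Ins/Ins and 0.58 in Ins/Del, beside a median over all genes tested of 0.00 and −0.01. The summed level of the members was 199 to 200.2 CPM in the control libraries, 435 to 454 in Ins/Ins and 472 to 490 in Ins/Del. *Tex19.1* supplied the largest share of it in every line and most of its rise. Alone it had 59.1 to 62.8 CPM in control, 255 to 267 in Ins/Ins and 269 to 283 in Ins/Del. Both comparisons used the same 3 control libraries.

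**Figure D1:**
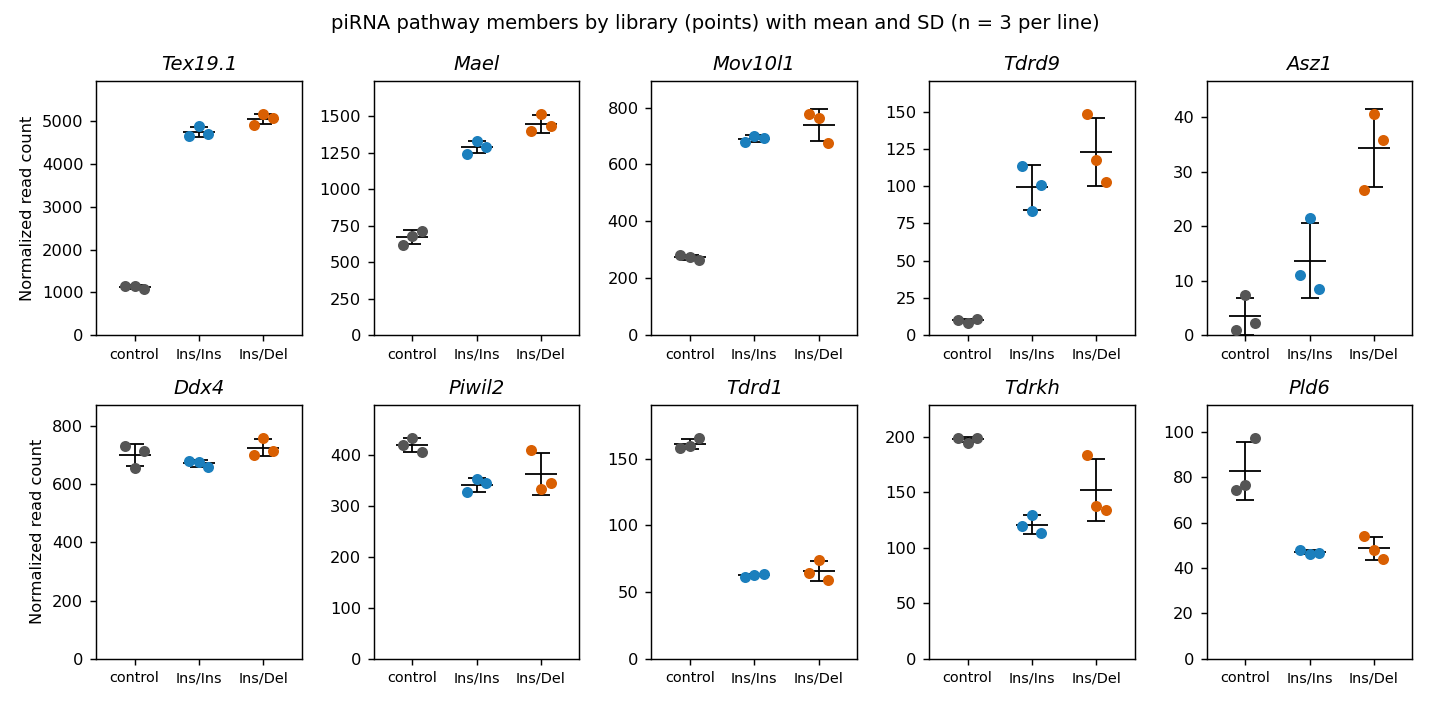
Normalised read counts of the 10 members in each of the 9 libraries, one point per library and grouped by line, with mean and SD. Each panel has its own linear axis. The mutant libraries of *Tex19.1*, *Mael*, *Mov10l1*, *Tdrd9* and *Asz1* all lie above the 3 control libraries, those of *Tdrd1*, *Tdrkh* and *Pld6* all lie below them, and those of *Ddx4* overlap them.

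Per length of exon, the order of the members changed little among the highest and most among the lowest. In control, *Tex19.1* led with 32.9 ± 1.11 RPKM (reads scaled by exon length and library size; SD, n = 3), followed by *Mael* with 21.2 ± 1.56 and *Ddx4* with 12.7 ± 0.699. The middle of the order in control was *Piwil2* at 4.35 ± 0.144 RPKM, *Mov10l1* at 3.58 ± 0.0994 and *Pld6* at 2.58 ± 0.398, and then came *Tdrkh* at 1.76 ± 0.0225 and *Tdrd1* at 1.62 ± 0.0408. *Tdrd9* at 0.0994 ± 0.0130 RPKM and *Asz1* at 0.0668 ± 0.0663 closed the order in control, and these neighbours were within their spread of each other. In Ins/Ins *Tex19.1* reached 139 ± 3.41 RPKM and *Mael* 40.7 ± 1.37, and *Mov10l1* at 9.05 stood above *Piwil2* at 3.54. *Tdrd9* rose there to 1.00 ± 0.153 RPKM, within its spread of *Tdrkh* at 1.08 ± 0.0748 and above *Tdrd1* at 0.632. In Ins/Del *Asz1*, at 0.665 ± 0.138 RPKM, was within its spread of *Tdrd1* at 0.662 ± 0.0764, and *Tex19.1* again led with 148 ± 3.70.

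*Tex19.1* had the highest level of any member and one of the largest increases. It encodes a mammal-specific protein of germ cells, placenta and pluripotent cells that is required to restrain retrotransposons in the male germline, and it lies on chromosome 11 (121146143–121148319, plus strand, mm10). Its normalised counts were 1145, 1146 and 1079 in control, 4660.0, 4878 and 4699 in Ins/Ins, and 4913, 5162 and 5075 in Ins/Del. The 3 lines did not overlap, and the libraries of each line lay within a narrow range. *Tex19.1* increased 4.22-fold in Ins/Ins (log2 fold change 2.08, SE 0.0364, adjusted p = 7.5e-35) and 4.49-fold in Ins/Del (2.17, SE 0.0363, adjusted p = 1.1e-35). Although every Ins/Del library lay above every Ins/Ins library, that difference of 0.09 on the log2 scale did not pass the threshold (95% confidence interval 0.03 to 0.15, adjusted p = 0.037). *Tex19.1* has a paralog beside it on chromosome 11, *Tex19.2*, and reads from stretches the pair share may have been assigned to either or dropped by the counting.

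Among the genes of the processing granules and of piRNA precursor handling, *Mael* and *Mov10l1* were already transcribed in control ESCs and increased in both mutants. *Mael* (maelstrom; chromosome 1, 166201201–166238747, minus strand) encodes a granule and nuclear protein with an HMG box that acts in transposon silencing and meiosis. It had 617, 679 and 715 normalised counts in control, 1243, 1329 and 1289.7 in Ins/Ins, and 1396, 1513 and 1431 in Ins/Del. No library of either mutant line reached down to the control range, and the mutant lines did not overlap each other. The increase was 1.93-fold in Ins/Ins (log2 fold change 0.94, SE 0.0521, adjusted p = 7.9e-19) and 2.17-fold in Ins/Del (1.12, SE 0.0514, adjusted p = 1.9e-21). *Mov10l1* (chromosome 15, 88982909–89055152, plus strand) encodes the RNA helicase that feeds precursor transcripts into piRNA biogenesis. Its normalised counts were 280.4, 273 and 265 in control, 677, 702 and 692 in Ins/Ins, and 777, 765 and 676 in Ins/Del, so that both mutant lines lay above control and overlapped each other. It increased 2.52-fold in Ins/Ins (1.33, SE 0.0673, adjusted p = 4.6e-20) and 2.71-fold in Ins/Del (1.44, SE 0.0667, adjusted p = 2.4e-21).

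*Tdrd9* and *Asz1* were close to undetected in control cells and were the members with the largest fold changes in Ins/Del. *Tdrd9* (chromosome 12, 111971559–112068854, plus strand) encodes a Tudor-domain ATP-dependent helicase that partners the PIWI protein MIWI2 in the nucleus-directed arm of the pathway. It had 10.3, 8.38 and 10.8 normalised counts in control (12, 8 and 10 reads), 114, 83.5 and 100.4 in Ins/Ins, and 148, 117 and 103 in Ins/Del. Every mutant library lay far above every control library, and the mutant lines overlapped each other. The increase was 10.1-fold in Ins/Ins (log2 fold change 3.33, SE 0.236, adjusted p = 1.7e-15) and 12.4-fold in Ins/Del (3.63, SE 0.227, adjusted p = 3.1e-17). The 30 reads of the control libraries together give a ratio of summed, depth-scaled reads of 10.2 with an exact 95% interval of 7.01 to 15.4 in Ins/Ins and of 12.5 with 8.63 to 18.8 in Ins/Del. These intervals cover counting error only.

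*Asz1* (chromosome 6, 18050964–18109061, minus strand) encodes GASZ, an ankyrin-repeat protein that anchors the granules at mitochondria. Its reads were 1, 7 and 2 in control, 13, 19 and 8 in Ins/Ins, and 26, 45 and 31 in Ins/Del, or 0.855, 7.33 and 2.17, 11.1, 21.4 and 8.46, and 26.6, 40.6 and 35.9 normalised counts. The 3 lines did not overlap, though the highest control library and the lowest Ins/Ins library were 1 read apart. *Asz1* increased 3.95-fold in Ins/Ins (log2 fold change 1.98, SE 0.537, adjusted p = 0.0014) and 10.1-fold in Ins/Del (3.34, SE 0.439, adjusted p = 1.5e-08). Of counting error alone, the exact 95% interval of the ratio was 2.0 to 9.11 for the 40 reads of Ins/Ins and 5.50 to 22.6 for the 102 reads of Ins/Del, each against 10 reads in control. The Ins/Ins call was lost without control replicate 1 (log2 fold change 1.46, adjusted p = 0.021) and without Ins/Ins replicate 2 (1.56, adjusted p = 0.024). Without control replicate 2, which held 7 of the 10 control reads, the log2 fold change was 3.12 in Ins/Ins and 4.48 in Ins/Del, and over all alternatives the adjusted p of the Ins/Ins comparison was between 0.00017 and 0.024. *Asz1* passed the filter on low counts through the mutant libraries only, as no control library reached its minimum. *Tdrd9* also passed through the mutant libraries only, as just 1 of 3 control libraries reached it.

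**Figure D2:**
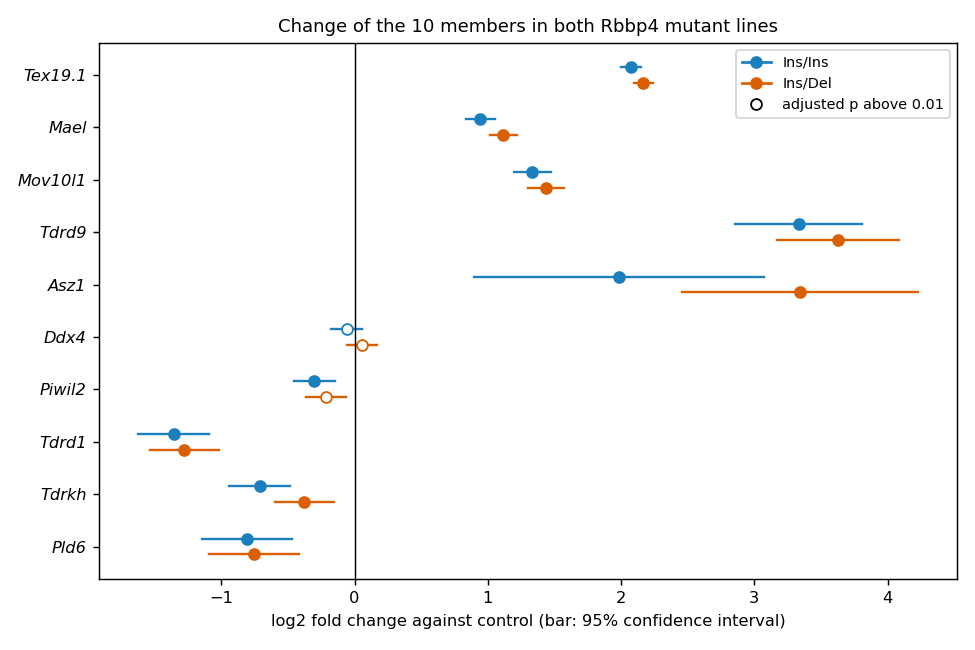
Log2 fold change of each member in Ins/Ins and in Ins/Del against control from the quasi-likelihood fit, with 95% confidence intervals as bars. *Tdrd9*, *Asz1*, *Tex19.1*, *Mov10l1* and *Mael* lie above 0 in both lines, *Tdrd1*, *Pld6* and *Tdrkh* lie below 0, and the intervals of *Ddx4* include 0.

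The helicase *Ddx4* was not called in either line. *Ddx4* (the mouse vasa homolog; chromosome 13, 112598333–112652475, minus strand) encodes the DEAD-box protein that is the classical marker of germ cells and of their granules. Its normalised counts were 730.1, 657 and 713 in control, 681, 678 and 659 in Ins/Ins, and 702, 759.7 and 716 in Ins/Del. Both mutant lines overlapped control. The log2 fold change was −0.06 in Ins/Ins (95% confidence interval −0.17 to 0.05, adjusted p = 0.35) and 0.05 in Ins/Del (−0.06 to 0.16, adjusted p = 0.41).

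The Tudor-domain scaffolds *Tdrd1* and *Tdrkh* were lower in both mutant lines. *Tdrd1* (chromosome 19, 56826209–56870012, plus strand) encodes a scaffold with several Tudor domains that binds the methylated arginines of PIWI proteins, the product of *Piwil2* among them. It had 158, 159 and 166 normalised counts in control, 61.6, 63.2 and 63.4 in Ins/Ins, and 64.4, 74.0 and 59.0 in Ins/Del. The mutant libraries all lay far below control and overlapped each other. *Tdrd1* decreased by 61.0% in Ins/Ins (log2 fold change −1.36, SE 0.130, adjusted p = 8.5e-12) and by 58.7% in Ins/Del (−1.28, SE 0.129, adjusted p = 2.9e-11), the largest decrease among the members in both lines. *Tdrkh* (chromosome 3, 94413273–94434668, plus strand) encodes a mitochondrial Tudor and KH-domain protein that takes part in trimming the 3′ ends of piRNAs. Its normalised counts were 199, 195 and 199 in control, 119.8, 129.8 and 113 in Ins/Ins, and 184, 138 and 134 in Ins/Del. All mutant libraries were below control, while Ins/Del replicate 1 stood nearer to control than to the other libraries of its line. *Tdrkh* decreased by 39.0% in Ins/Ins (−0.71, SE 0.114, adjusted p = 8.6e-07) and by 23.1% in Ins/Del (−0.38, SE 0.109, adjusted p = 0.0024). The Ins/Del call was lost with DESeq2 (−0.37, adjusted p = 0.022), without Ins/Del replicate 2 (−0.30, adjusted p = 0.030) and without Ins/Del replicate 3 (−0.30, adjusted p = 0.023), with adjusted p between 0.00013 and 0.030 over all alternatives. On the opposite strand *Oaz3* overlaps 36.7% of the exonic length of *Tdrkh*, and *Oaz3* had at most 2 reads in any library. If strand was not used, reads in that overlap may have been dropped for both genes.

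*Pld6*, which encodes the mitochondrial nuclease Zucchini that makes piRNA 5′ ends (chromosome 11, 59783897–59787645, minus strand), was also lower in both lines. It had 74.4, 76.5 and 97.4 normalised counts in control, 47.9, 46.3 and 46.5 in Ins/Ins, and 54.2, 47.8 and 44.0 in Ins/Del. The control libraries spread more widely than the mutant ones, and no mutant library reached the control range. The decrease was 42.8% in Ins/Ins (log2 fold change −0.81, SE 0.168, adjusted p = 6.3e-05) and 40.6% in Ins/Del (−0.75, SE 0.167, adjusted p = 0.00014).

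*Piwil2* (MILI; chromosome 14, 70372477–70429383, minus strand) encodes the cytoplasmic PIWI protein that amplifies piRNAs by slicing, and it is the only PIWI gene among the members. Its normalised counts were 419, 434 and 406 in control, 327, 352 and 346 in Ins/Ins, and 409, 333 and 346 in Ins/Del. All Ins/Ins libraries lay below control, whereas Ins/Del replicate 1 lay within the control range. *Piwil2* decreased by 18.8% in Ins/Ins (log2 fold change −0.30, SE 0.0754, adjusted p = 0.00064). In Ins/Del the log2 fold change of −0.21 did not pass the threshold (95% confidence interval −0.36 to −0.06, adjusted p = 0.012). It passed without Ins/Del replicate 1 (−0.31, adjusted p = 0.0010) and when libraries were scaled by total counts (−0.23, adjusted p = 0.0072), with adjusted p between 0.0010 and 0.12 over all alternatives. No test of the direct difference between the mutant lines passed for this gene (0.09, SE 0.0776, adjusted p = 0.47).

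*Piwil2* lies in a stretch of chromosome 14 in which most tested genes were lower in each mutant line. Between 45 and 88 Mb, bounds known from earlier results of these data, 264 genes were tested. Because the bounds come from the same data, the contrast with genes elsewhere is a description and not a test. In Ins/Ins 223 of them (84.5%) were lower and 10 higher, with a median log2 fold change of −0.91, and in Ins/Del 215 (81.4%) were lower and 13 higher, with a median of −0.93. Elsewhere 28.5% of 13602 tested genes with a position were lower in Ins/Ins and 31.1% in Ins/Del. Within 1 Mb of *Piwil2* 23 of 24 other tested genes (95.8%) were lower in each mutant line, with a median log2 fold change of −1.26 in Ins/Ins and −1.36 in Ins/Del. *Ppp3cc* was the exception, at −0.02 in Ins/Ins and 0.02 in Ins/Del. The change of *Piwil2* was thus smaller than that of 23 of its 24 neighbours. The part of this segment in the decrease of *Piwil2* was not tested.

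**Figure D3:**
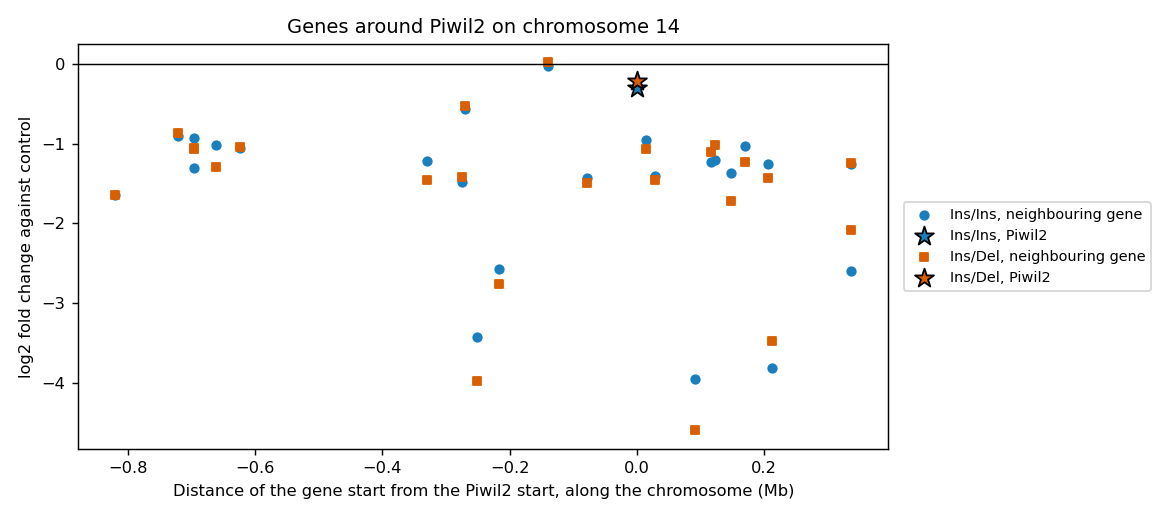
Log2 fold change against control of *Piwil2* and of the 24 other tested genes within 1 Mb of it, plotted by distance from *Piwil2* in Mb, for Ins/Ins and Ins/Del. All neighbours but *Ppp3cc* lie below 0 in both lines and below *Piwil2*, which is at −0.30 in Ins/Ins and −0.21 in Ins/Del.

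Compared directly, the mutant lines were close to each other for most members. In this comparison 10.8% of all genes tested were called (6.17% higher in Ins/Del and 4.64% lower). *Mael* and *Asz1* were higher in Ins/Del than in Ins/Ins, no member was lower, and 8 were not called. *Mael* was 1.13-fold higher (log2 difference 0.17, SE 0.0471, adjusted p = 0.0077) and *Asz1* 2.57-fold higher (1.36, SE 0.326, adjusted p = 0.0024). Neither call held throughout. That of *Mael* was lost with DESeq2 (0.18, adjusted p = 0.017) and without any one of Ins/Ins replicates 1 and 3 and Ins/Del replicates 2 and 3, with differences of 0.14 to 0.20 and adjusted p of 0.0025 to 0.088 over all alternatives. The call of *Asz1* was lost without any one of those same libraries, with differences of 1.13 to 1.79 and adjusted p of 0.00019 to 0.030. The estimates for the other members were *Tdrkh* 0.33 (SE 0.120, adjusted p = 0.045), *Tdrd9* 0.30 (SE 0.141, adjusted p = 0.14), *Ddx4* 0.11 (SE 0.0560, adjusted p = 0.17) and *Mov10l1* 0.10 (SE 0.0576, adjusted p = 0.22). *Tdrd1* at 0.08 (95% confidence interval −0.23 to 0.39) and *Pld6* at 0.05 (SE 0.186, adjusted p = 0.88) were not called either. In 5 of the 10 members (*Mael*, *Ddx4*, *Asz1*, *Tex19.1* and *Tdrkh*) every Ins/Del library lay above every Ins/Ins library, beside 17.4% of all genes tested, and in none of them was every Ins/Del library lower, beside 16.7%.

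Of a wider list of 20 other piRNA pathway genes in the tables, 18 were tested. In Ins/Ins 7 were higher, 4 lower and 7 not called, and in Ins/Del 8 were higher, 4 lower and 6 not called. The background was 29.0% higher and 29.4% lower in Ins/Ins and 30.6% higher and 31.9% lower in Ins/Del. The median log2 fold change was 0.23 in Ins/Ins and 0.21 in Ins/Del. *Fkbp6*, which encodes a co-chaperone required for piRNA loading and meiosis, had the largest change, with 40.2, 70.2 and 76.9 normalised counts in control, 760.4, 853 and 788 in Ins/Ins, and 945, 956 and 963 in Ins/Del. The lines did not overlap, and the increase was 13.1-fold in Ins/Ins (3.71, SE 0.102, adjusted p = 1.1e-28) and 15.7-fold in Ins/Del (3.97, SE 0.0992, adjusted p = 3.4e-30), above that of every member in these fits. *Gtsf1*, a zinc-finger partner of PIWI proteins, increased from a mean of 29.2 normalised counts to 83.5 and 98.9 (2.84-fold and 3.37-fold). *Gpat2*, a mitochondrial protein of piRNA biogenesis, increased from 191 to 407 and 467 (2.12-fold and 2.44-fold), and *Btbd18*, a nuclear factor for piRNA precursor transcription, from 52.0 to 105 and 109 (2.02-fold and 2.09-fold). The adjusted p of these 3 genes was between 1.2e-17 and 2.0e-07.

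Decreases of more than 2-fold in the wider list were those of *Tdrd5* and *Prmt5*. *Tdrd5*, a further Tudor-domain gene of the granules, fell from 179 ± 10.8 normalised counts in control to 71.5 ± 6.70 in Ins/Ins and 63.2 ± 7.60 in Ins/Del (SD, n = 3; log2 fold changes −1.32 and −1.50, adjusted p = 9.0e-12 and 4.9e-13), a decrease close in size to that of *Tdrd1*. *Prmt5*, the arginine methyltransferase whose marks on PIWI proteins are read by Tudor domains and which has many other substrates, fell from 3905 ± 45.1 to 1787 ± 68.1 and 1689 ± 48.1 (−1.13 and −1.21, adjusted p = 7.9e-27 and 7.7e-28). *Prmt5* lies on chromosome 14 (54507187–54517525), inside the segment that holds *Piwil2*. *Rnf17* of the same list also lies there, at 56.4 to 56.5 Mb. Its log2 fold change was −0.18 in Ins/Ins (adjusted p = 7.9e-05) and −0.08 in Ins/Del (adjusted p = 0.058). The other PIWI genes were singled out after their values were seen. *Piwil1* had 22.2, 13.6 and 24.9 normalised counts in control, 25.7, 27.1 and 19.0 in Ins/Ins and 46.0, 48.7 and 33.6 in Ins/Del, with a log2 fold change of 0.24 in Ins/Ins (adjusted p = 0.47) and 1.08 in Ins/Del (adjusted p = 0.00024). *Piwil4* (MIWI2) gave 0.44 in Ins/Ins (adjusted p = 0.094) and 0.84 in Ins/Del (adjusted p = 0.0012). For neither gene did the direct difference between the mutant lines pass the threshold (adjusted p = 0.012 for *Piwil1* and 0.21 for *Piwil4*).

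**Figure D4:**
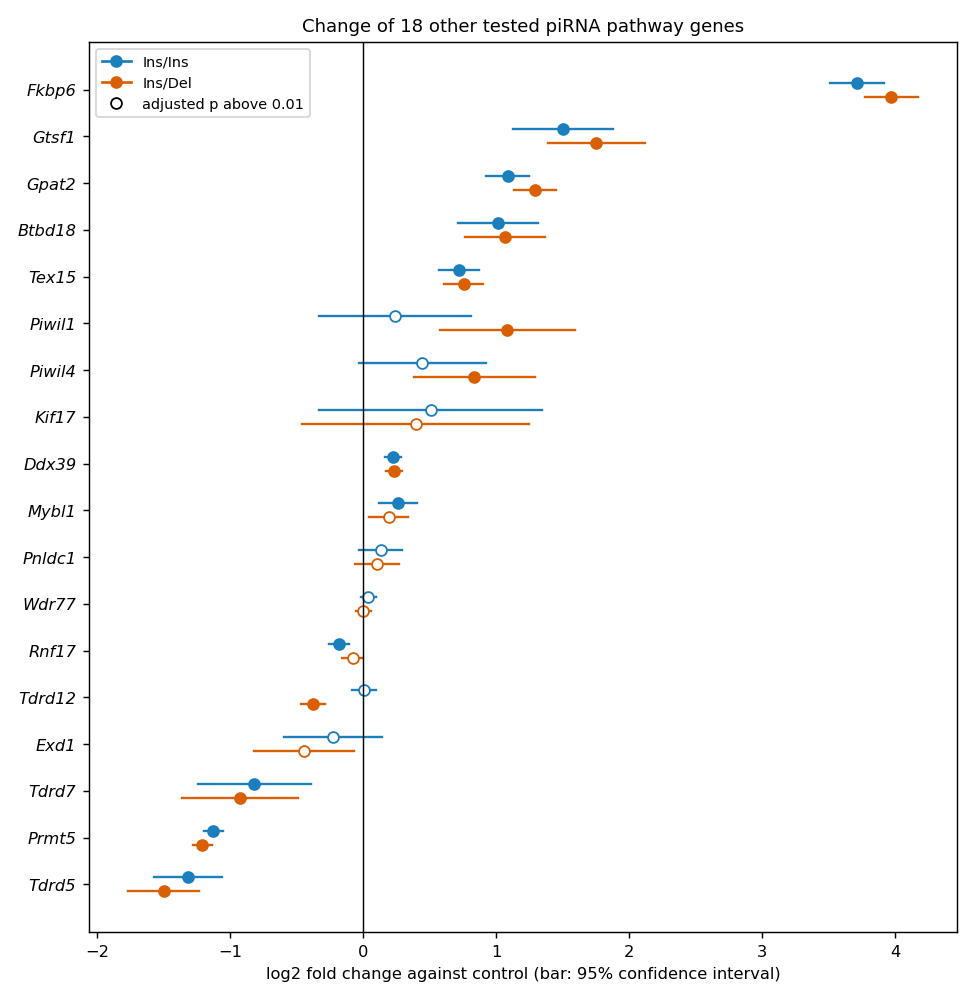
Log2 fold change against control, with 95% confidence intervals, of the 18 tested genes of the wider piRNA pathway list in Ins/Ins and Ins/Del. *Fkbp6* lies highest at 3.71 and 3.97, and *Tdrd5* and *Prmt5* lie lowest, at −1.32 and −1.13 in Ins/Ins and −1.50 and −1.21 in Ins/Del.

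Germline genome defence also runs through DNA methylation and chromatin. Of 25 genes of retroelement defence outside the piRNA pathway, 24 were tested, and in Ins/Ins 10 were higher, 10 lower and 4 not called, and in Ins/Del 12 were higher, 8 lower and 4 not called. The shares over all genes tested were 29.0% higher and 29.4% lower in Ins/Ins and 30.6% and 31.9% in Ins/Del. *Tex19.2*, the paralog of *Tex19.1*, had 17.1, 10.5 and 16.2 normalised counts in control, 84.7, 84.6 and 95.1 in Ins/Ins, and 125, 94.7 and 108 in Ins/Del. It increased 5.92-fold (log2 fold change 2.57, SE 0.213, adjusted p = 1.6e-13) and 7.31-fold (2.87, SE 0.205, adjusted p = 1.7e-15). *Morc1*, an ATPase required for transposon silencing in male germ cells, increased from 1348 ± 18.7 normalised counts to 3961 ± 103 in Ins/Ins (2.93-fold) and 4774 ± 170.3 in Ins/Del (3.54-fold). *Dnmt3l*, the cofactor of germline de novo methylation, increased 1.84-fold and 2.36-fold, whereas the de novo methyltransferases *Dnmt3a* (−1.65 in Ins/Ins and −1.31 in Ins/Del) and *Dnmt3b* (−1.27 and −1.19) decreased. *Zc3hav1*, an RNA-binding antiviral factor, increased 2.53-fold and 2.21-fold. All these changes had adjusted p of at most 1.6e-13 in the same fit.

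Levels in a bulk library can change because fewer or more cells of a type are present or because each cell holds less or more RNA, and these cannot be told apart. All 6 markers of 2-cell-like cells (*Zscan4c* and others) were higher in both mutants (25.6% of all genes tested). Their summed level was 49.0 to 49.9 CPM in control, 126 to 133 in Ins/Ins and 181 to 189 in Ins/Del. Of the 6, 5 were also higher in Ins/Del than in Ins/Ins (6.17% of all genes tested). Of 13 germ cell markers outside the members, 11 were tested, of which 6 were higher and 4 lower in Ins/Ins and 4 higher and 4 lower in Ins/Del (all genes tested: 29.0% higher and 29.4% lower in Ins/Ins, 30.6% and 31.9% in Ins/Del), and their summed level was 223 to 234 CPM in control, 280 to 294 in Ins/Ins and 261 to 269 in Ins/Del. Members of that list differed widely: the log2 fold changes in Ins/Ins and Ins/Del were 1.44 and 1.78 for *Dazl*, 2.13 and 2.22 for *Stra8*, −1.35 and −1.51 for *Dnd1* and −4.17 and −4.09 for *Gfra1*, all called, while *Nanos2* had at most 2 reads in any library. Of 8 oocyte markers only the zona pellucida gene *Zp3* was tested, and it was higher in both lines, with the list at 2.76 to 2.97, 8.10 to 10.4 and 10.9 to 11.8 CPM in control, Ins/Ins and Ins/Del. Most of that level was *Zp3* itself, with means of 36.6, 154 and 183 normalised counts in these lines. *Oosp1* was at 0 in the control libraries and *Zp1* in the Ins/Ins libraries. Markers of differentiated cells summed to 79.7 to 88.1 CPM in control, 27.0 to 29.9 in Ins/Ins and 32.1 to 34.7 in Ins/Del. Of 9 tested, the calls were 1 up and 5 down in Ins/Ins, against 3 up and 5 down in Ins/Del. Shares over all genes tested were as given for the germ cell markers. *Pax6*, *Col1a1*, *Col1a2*, *T* and *Gata4* fell in both lines. *Gata4*, at 63.2 to 63.3 Mb, lies inside the chromosome 14 segment that holds *Piwil2*. *Thy1* rose 5.39-fold in Ins/Ins and 6.80-fold in Ins/Del. *Gata6* (2.20-fold) and *Sox17* (2.22-fold) were called higher in Ins/Del only. The part of any of these marker groups in the members' changes was not tested.

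The member with the largest mean increase over both lines was *Tdrd9*, and that with the largest mean decrease *Tdrd1*. Among 12711 tested genes with a mean of at least 20 normalised counts, the profile of *Tdrd9* over the 9 libraries was most like those of *Aox3* (Pearson r = 0.998 on log2 counts), *Myo1e* (0.997) and *Slc52a3* (0.997), and 532 genes exceeded 0.98. That of *Tdrd1* was most like *Ppp4r4* (0.998), *Ilk* (0.997) and *Ints6* (0.997), with 389 genes over 0.98. The 9 libraries form 3 lines, so these correlations mostly describe the step between control and mutant libraries.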

How the data were processed

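Kapa mRNA HyperPrep libraries of the 9 samples were aligned by the authors to mm10 with STAR 2.7.3 and counted with HTSeq, according to the submitters' processing notes. The deposited files hold raw counts per gene symbol, with no header. The counting annotation and strand setting are not given in the sources used here. Without strand, reads over overlapping antisense genes may be assigned to either or dropped. Genes passing filterByExpr (14125) were tested with edgeR 4.0.16 in R 4.3.3 (TMM factors, glmQLFit and glmQLFTest, all 9 libraries and 3 lines in one fit, Benjamini-Hochberg adjustment, threshold 0.01, as in the study's methods, which used DESeq2). Scripts were tested on simulated data. DESeq2 1.42.0 was an alternative. Replicates of a line differed by more than sampling noise (chi-square per gene 1.87 to 4.62). CPM used effective library sizes, RPKM the exon union of GENCODE M21, and positions the same annotation.

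The members and all lists were chosen with earlier results of these data known. Named were all members, *Rbbp4*, genes of the wider piRNA and retroelement defence lists called in both mutants in one direction with a mean absolute log2 fold change above 1, and the 3 genes most like the members with the largest mean increase and decrease. *Oaz3*, *Ppp3cc*, *Piwil1*, *Piwil4*, *Rnf17* and the marker genes used as examples were named after their values were seen.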

Additional observations from a re-analysis of the deposited data

Results flagged for a closer look

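Both members called in the direct comparison of the mutant lines are flagged by that same call, and the values below repeat it. Neither call held in all alternatives, as given above. *Mael* was higher in Ins/Del than in Ins/Ins by 0.17 on the log2 scale, and *Asz1* by 1.36, each in 3 of 3 libraries against 3 of 3 (edgeR quasi-likelihood test, adjusted p = 0.0077 and 0.0024). The *Asz1* difference rests on 102 reads against 40.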

How the results depend on the processing

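Of the recomputed fold changes of members, 456 kept their direction and side of the threshold, 14 lost the call, 5 gained one and 3 reversed, while 307 recomputed counts of genes stayed within 1.5 times and 13 did not. Against control, 4 to 5 members were higher and 4 lower in Ins/Ins over the alternatives, and 5 higher and 2 to 4 lower in Ins/Del. With only the Ins/Ins and control libraries fitted, *Asz1* did not pass the filter. Between the mutant lines, DESeq2 called 421 genes lower (655 in edgeR) and 0 members higher, giving no adjusted p for *Asz1*, and at an adjusted p of at most 0.05 there were 1426 genes higher, 1256 lower and 4 members higher. Leaving out 1 library gave 576 to 943 genes higher, 406 to 703 lower and 0 to 2 members higher, and reversed uncalled differences of *Piwil2* (−0.0074 to 0.15), *Tdrd1* (−0.019 to 0.15) and *Pld6* (−0.027 to 0.11). The cause was not tested. Same-numbered libraries did not deviate together (r between −0.04 and 0.03, 4 of 9 libraries closest to their own number), so no pairing by number was seen. With so few libraries per line, this check cannot exclude one. With the replicate number as a block, 4077 genes were higher and 4148 lower in Ins/Ins (5 and 4 members), 4308 and 4487 in Ins/Del (5 and 3 members), and 857 and 642 between the mutant lines (2 and 0 members). Depth limits *Asz1* and *Tdrd9* in control.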
